A study of Bos taurus with 12 samples.

Results

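The first megabase of chromosome 21 of the cattle genome (build ARS-UCD1.2) was described as the loci with an end at or below position 1000000 in both deposited tables of a comparison of bull sperm DNA methylation. It held 275 of 17730 listed single CpG sites and 98 of 7290 listed tiles, which are windows of 500 bp. Only 26 of the 275 sites, and no tile, had an immunoglobulin heavy variable gene as their closest annotated feature. The other 249 sites had 8 genes without a functional name, CpG islands or an unnamed transcript as their closest feature, so the stretch is called here by its position and not as an immunoglobulin region. The stretch was chosen with the authors' differences and q-values in view, and its counts and values are descriptions with no test.

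The data came from enzymatic methylation sequencing of sperm DNA of 12 bull samples, 6 labelled low daughter fertility and 6 labelled high daughter fertility, all from sperm of males; the labels give no breed, age or treatment, do not say whether each sample is a separate bull, and do not say how the fertility of daughters was measured. Each locus had a methylation difference in percentage points, a p-value and a q-value, all by the authors, and no source used here tells which group was subtracted, so a sign is given as listed. Values for single samples and read depth were not analysed here, and no spread between bulls can be set beside a difference.

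The immunoglobulin heavy chain is the larger chain of an antibody. Its gene locus holds many variable segments, followed by diversity and joining segments and by the constant regions, of which IGHM encodes the chain of IgM. In developing B cells 1 variable segment is joined to a diversity and a joining segment, a DNA rearrangement that does not take place in the germ line, so sperm carry the locus unrearranged. Many variable segments are similar in sequence to each other, and reads from near-identical copies can be hard to place, which was not tested here. Methylation of CpG sites in mammalian sperm is high over most of the genome and low at many CpG islands.

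The authors' annotation named immunoglobulin heavy variable 4-38-2 (ENSBTAG00000048268) and immunoglobulin heavy variable 4-59 (ENSBTAG00000053635). In the RefSeq table of the later assembly ARS-UCD2.0, used for names and order only, the NCBI numbers of both genes were found, as LOC100300716 and LOC104968484. Of the 13 RefSeq entries that precede them on chromosome 21 there, 5 were variable segments and 5 were constant regions, IGHM among them. The 6 entries that follow them there were all pseudogenes of olfactory receptors. Genes without a name in the authors' annotation were not matched to RefSeq entries, since the 2 builds differ.

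Called sites, taken as those with a q-value below 0.05 and a difference of at least 10 points, had both signs, and 19 of them lay between positions 338972 and 367758. There were 27 called sites (9.82%), against 5.94% of all listed sites, and the stretch was chosen from these values. Of them 14 were negative, with 4.78% of all listed sites called negative, and 13 were positive, with 1.16% of all listed sites called positive. In the authors' deposited table the differences over the 275 sites ran from -21.2 to 20.2 points, with a median of -0.50 points. Genes were the closest feature of 21 called sites, CpG islands of 2 and the unnamed transcript of 4.

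The listed sites fell into 13 separate stretches, a division made after the values were seen and defined by gaps of over 10000 bp without a listed site. The one between positions 338972 and 367758 held 123 listed and 19 called sites, 8 negative and 11 positive. The next in size, from 673204 to 703629, held 80 listed sites and 3 calls, all negative. A further 32 sites lay between 725378 and 735077 with no call, although 1 of them had a q-value below 0.05. From 383127 to 393528 there were 21 sites and 1 call. The remaining 9 stretches held 1 to 4 sites each and 4 calls in all.

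**Figure D1:**
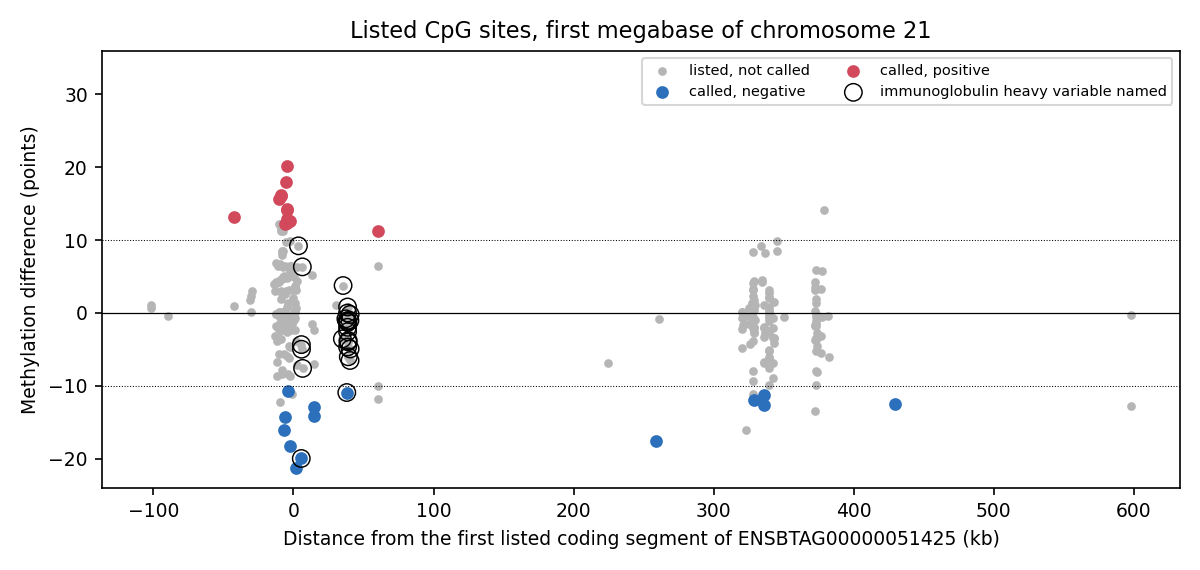
Methylation difference in percentage points (vertical axis) of each of the 275 listed sites by distance in kb from the first listed coding segment of ENSBTAG00000051425 (horizontal axis). Coloured points are the 27 called sites, rings mark the 26 sites named for a heavy variable gene, dotted lines stand at 10 points either way, and 12 of the 13 positive calls lie left of 0 kb while calls to the right of it are negative but for 1.

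The sign of the calls changed along the chromosome. Of the 15 called sites up to position 350591, 12 were positive and 3 negative. Of the 12 called sites beyond it, 11 were negative, and the exception was the site at 413108. Of these 11 calls, 2 were the strands of 1 CpG, at 688987 and 688988. Negative calls made up 80.5% of the calls among all listed sites and 86.7% of those in the rest of chromosome 21. Calls beyond 350591 were thus mostly negative, as elsewhere, and it was the calls up to 350591 that differed in sign from most calls. The break at 350591 was chosen after the values were seen and was not tested. The longest series of calls of 1 sign, with no call of the other sign between them, were 6 positive calls from 347917 to 348784 and 6 negative calls from 350937 to 391128.

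Immunoglobulin heavy variable 4-38-2, a variable gene, had 6 listed sites, all on the plus strand, and 1 was called. Annotated exons at 358253 to 358441 and at 358524 to 359018, with coding sequence from 358524 to 358960, were among the closest features of these sites. In the authors' deposited table the called site, at 358646, had a difference of -19.97 points (p = 0.000115, q = 0.00255) and lay inside the second of these exons, 122 bp from its edge. This was the second lowest difference of the whole megabase. The other 2 sites inside that exon had the same sign per the authors' deposited table but smaller differences, with -4.34 points at 358730 (q = 0.254) and -4.97 points at 358803 (q = 0.307). Upstream of the gene, at 356627, the authors' deposited table listed 9.22 points (q = 0.268). Past its 3′ untranslated region the table gave both signs, with 6.33 points at 359405 (q = 0.410) and -7.61 points at 359584 (q = 0.278), per the authors' deposited table. Calls in this gene therefore rested on a single cytosine among 6 listed.

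Immunoglobulin heavy variable 4-59, the other named variable gene, had 20 listed sites, all in the authors' promoter class, at 617 to 6165 bp from its exon at 394145 to 394274. Their differences were small and mostly of 1 sign: 17 were negative, 2 positive and 1 was 0, with a median of -1.63 points. The 1 called site, at 391128, stood at -10.9 points (p = 0.00560, q = 0.0428) per the authors' deposited table. A site 27 bp farther on, at 391155, stood at -1.12 points (q = 0.683) per the authors' deposited table. Closer to the exon, the authors' deposited table listed -6.52 points at 393457 (q = 0.0231) and -4.94 points at 393515 (q = 0.0316), both past the q threshold and under 10 points. The 12 listed sites from 391696 to 393528 were all negative, the longest row of listed sites of 1 sign in the megabase, and none of them was called.

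Taken over both genes, 2 of 26 heavy variable sites were called (7.69%) and both were negative, while 25 of the 249 other sites were, 12 negative and 13 positive. Of all listed sites 5.94% were called, 4.78% as negative and 1.16% as positive calls, so most calls of the whole table were negative too. With 2 calls, neither the share nor the sign sets these genes apart from the whole table. Of the 26 differences 21 were negative (80.8%), against 129 of the other 249 (51.8%) and 59.0% of all listed sites. Their median was -2.26 points, that of the other sites -0.27 points and that of all listed sites -1.01 points. A q-value below 0.05 was reached by 4 of the 26 sites (15.4%), by 31 of the other 249 (12.4%) and by 8.11% of all listed sites, whatever the size of the difference.

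Among the genes without a functional name, ENSBTAG00000051425 had the most calls, with 13 of its 65 listed sites. The authors' annotation gives it as protein-coding, with coding segments at 353046 to 353091 and 353648 to 353670 and an intron between 353288 and 353647. Of the 13 calls 8 were positive and 5 negative, and the median of its 65 sites was 0.65 points. The promoter class held 47 listed sites, up to 7024 bp before the first listed coding segment, and 12 of them were called. None of the 3 sites inside the gene was called, and 1 of the 15 sites downstream of it was.

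The first called sites of this gene alternated in sign over short distances. In the authors' deposited table the first of them, at 346038, stood at -16.05 points (q = 0.0238). The next was positive, with 12.2 points at 347216 (q = 0.0400) per the authors' deposited table. Only 61 bp on, at 347277, the authors' deposited table listed -14.3 points (q = 0.0458). These 3 sites were followed by a series of positive calls.

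That series ran over 868 bp and held the highest difference of the megabase. It opened at 347917 with 17.9 points (p = 1.93e-05, q = 0.000606) per the authors' deposited table. The highest value, at 348421, was 20.2 points (q = 0.000231) per the authors' deposited table. Between and after them the authors' deposited table listed 14.1 points at 348289 (q = 0.0167), 12.9 points at 348335 (q = 0.04997), 14.3 points at 348460 (q = 0.00939) and 12.3 points at 348784 (q = 0.0487). Of the 11 listed sites over these 868 bp, 9 were positive and 2 negative. On the minus strand lay 5 of the 6 calls, and also 9 of the 11 listed sites.

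The series ended at 348994, where the authors' deposited table listed -10.6 points (q = 0.0395). Nearer to the coding sequence, 12.7 points at 350591 (q = 0.0271) stood 346 bp from -18.3 points at 350937 (q = 0.00359) per the authors' deposited table. The lowest difference of the megabase lay 882 bp downstream of the gene's second listed coding segment, at 354552, with -21.2 points (p = 0.000157, q = 0.00334) per the authors' deposited table. Its neighbours on either side were small, at -2.29 points (354395, q = 0.533) and 3.17 points (354664, q = 0.533) per the authors' deposited table.

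ENSBTAG00000046161, annotated as protein-coding with a 3′ untranslated region at 338775 to 338969, had 46 listed sites, all downstream of it. Of these 29 were positive and 17 negative, and the median was 3.55 points, the highest of any feature with at least 6 listed sites. Its 3 calls were all positive, on the minus strand and within 860 bp. In the authors' deposited table they stood at 15.6 points (343059, q = 0.0158), 16.2 points (343841, q = 0.01001) and 16.01 points (343918, q = 0.0158). Among the 10 listed sites over these 860 bp 8 were on the minus strand. Of the same 10 sites 3 were negative, the lowest with -12.2 points at 343398 (q = 0.111) per the authors' deposited table.

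ENSBTAG00000054133 had 6 listed sites in its intron from 365221 to 368764, which lies between the 2 named variable genes, and 5 of the 6 were negative. Its 2 calls lay 30 bp apart, with -13.0 points at 367656 (q = 0.0493) and -14.2 points at 367686 (q = 0.00773) per the authors' deposited table. Next to them, at 367646, stood -7.02 points (q = 0.0430) per the authors' deposited table, past the q threshold alone. The first site of the intron, at 366245, was positive with 5.23 points (q = 0.152) per the authors' deposited table.

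**Figure D2:**
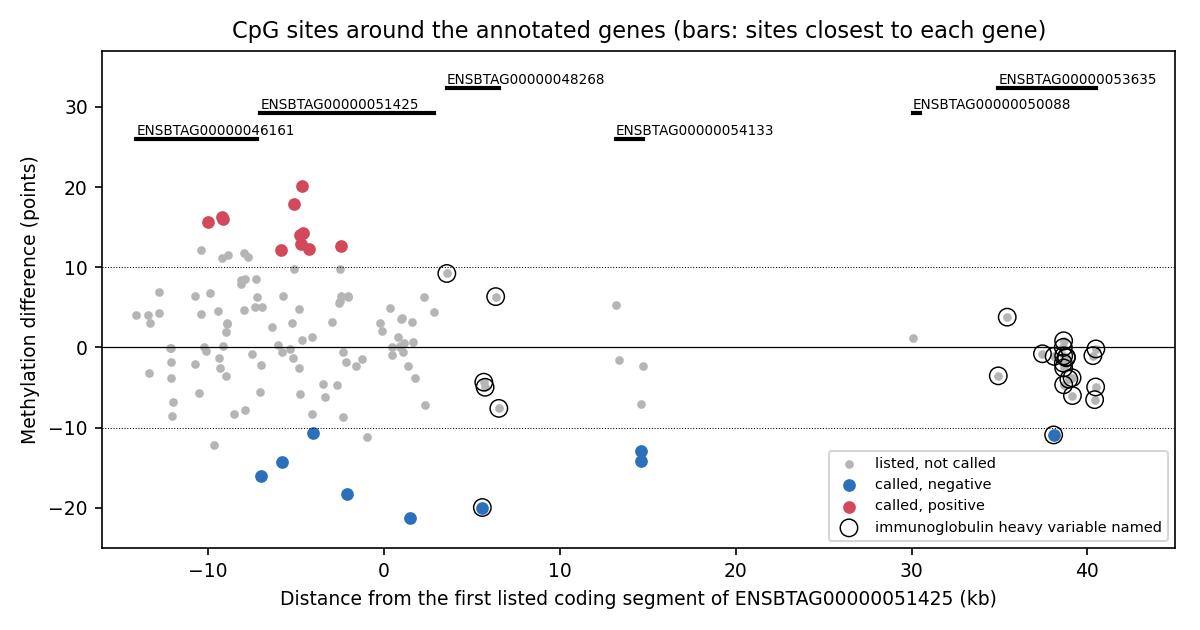
Methylation difference in percentage points (vertical axis) of the sites closest to the genes from ENSBTAG00000046161 to ENSBTAG00000053635, by distance in kb from the first listed coding segment of ENSBTAG00000051425 (horizontal axis). Black bars span the sites closest to each gene, colours and rings are as in the plot of all sites, and the sites of the 2 heavy variable genes (ENSBTAG00000048268 and ENSBTAG00000053635) hold 1 negative call each.

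The genes at the left end had few sites. ENSBTAG00000053508 had 2, and the one at 310455, in its promoter class, was called with 13.2 points (p = 1.52e-05, q = 0.000524) per the authors' deposited table, while the other, 28 bp away, stood at 0.99 points (q = 0.532). The 4 sites downstream of ENSBTAG00000024041 ran from 0.11 to 2.97 points, all positive, with no call. The 2 sites of ENSBTAG00000001213, the single site of ENSBTAG00000046076 and the single site of ENSBTAG00000050088 ran from -0.37 to 1.13 points and had no call. Of these genes ENSBTAG00000050088 is not at the left end but between the 2 heavy variable genes, with its site at 383127.

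CpG islands were the closest feature of 9 sites, none inside an island. Their called sites were one of each sign. The positive one, at 413108 and 2898 bp from its island, stood at 11.3 points (q = 0.0284) per the authors' deposited table. The negative one, at 612126 and 29804 bp from its island, stood at -17.6 points (q = 0.0493) per the authors' deposited table.

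Past the genes, 113 sites from 673204 to 782237 were closest to 1 exon of the transcript ENSBTAT00000081107, at 660249 to 660355, and this distance ran from 12849 to 121882 bp. The authors classed all of them as distal intergenic. Negative differences made up 72 of the 113, with a median of -1.46 points, and all 4 calls were negative. Of these calls 2 were the strands of 1 CpG, listed in the authors' deposited table with -11.2 points at 688987 (q = 0.0408) and -12.7 points at 688988 (p = 8.41e-06, q = 0.000312). The 7 listed sites from 688971 to 689042 were all negative, and 4 of them had a q-value below 0.05. The remaining calls stood alone, with -12.0 points at 681644 (q = 0.0267) and -12.5 points at 782237 (q = 0.0481) per the authors' deposited table. The highest difference here, 14.2 points at 731667, had a q-value of 0.101 per the authors' deposited table and was not called.

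**Figure D3:**
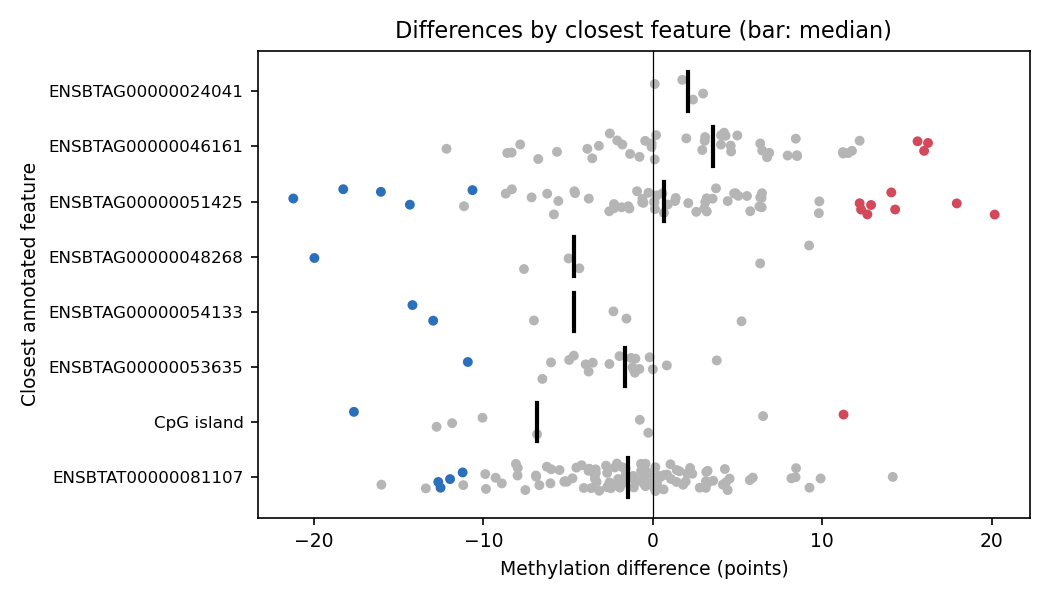
Methylation difference in percentage points (horizontal axis) of each listed site, by closest annotated feature (vertical axis, features with at least 4 sites, in order along the chromosome); black bars are medians, blue points negative calls and red points positive calls. Medians run from -6.83 points for CpG islands to 3.55 points for ENSBTAG00000046161.

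By the authors' position classes, calls were at 14 of 70 promoter sites, 3 of 14 sites inside a feature, 5 of 73 downstream sites and 5 of 118 distal intergenic sites. The downstream (6.85%) and distal intergenic (4.24%) shares were near the 5.94% of all listed sites, and the shares of the other classes were higher. Shares of the same classes over the whole site table are not given here, and a difference between classes was not tested. Of the 14 promoter calls 12 belonged to ENSBTAG00000051425, so the promoter share was largely that of 1 gene. Minus-strand cytosines held 16 of the calls among 138 listed, 6 negative and 10 positive. Plus-strand cytosines held 11 among 137 listed, 8 negative and 3 positive. Between 338972 and 367758 alone, the minus-strand calls were 3 negative and 9 positive, and the plus-strand calls 5 negative and 2 positive. Most positive minus-strand calls thus came from this 1 part. Shares by strand over the whole site table are not given here either, and a difference between strands was not tested.

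Both strands were listed for 50 CpGs, and 175 cytosines (63.6%) had no listed partner. Methylation of a CpG is usually symmetric between strands. Of the 49 CpGs with a difference other than 0 on both, 29 had the same sign (59.2%) and 20 opposite signs, and over the whole site table the share was 64.1%. The median gap between strands was 3.83 points, against 3.195 over the whole table. At least 1 strand was called in 6 CpGs, 5 of them with the same sign on both, and both strands were called in the pair at 688987 alone.

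The strands of single CpGs differed most beside the island at 409290 to 410210. In the authors' deposited table the CpG at 413108 had 11.3 points on the plus strand (q = 0.0284) and -11.8 points on the minus strand (q = 0.148). The CpG at 413101, 7 bp away, had 6.504 points on the plus strand (q = 0.315) and -10.1 points on the minus strand (q = 0.237) per the authors' deposited table. Near ENSBTAG00000046161 the called minus-strand site at 343918, with 16.01 points, had a plus-strand partner at 0.19 points (q = 0.821) per the authors' deposited table. The site at 347917 and its partner were nearer to each other, with 17.9 points on the plus strand and 9.80 points on the minus strand (q = 0.0896) per the authors' deposited table. In the 4 CpGs of the heavy variable genes with both strands, all near 4-59, the strands lay at most 3.60 points apart and no call was involved.

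**Figure D4:**
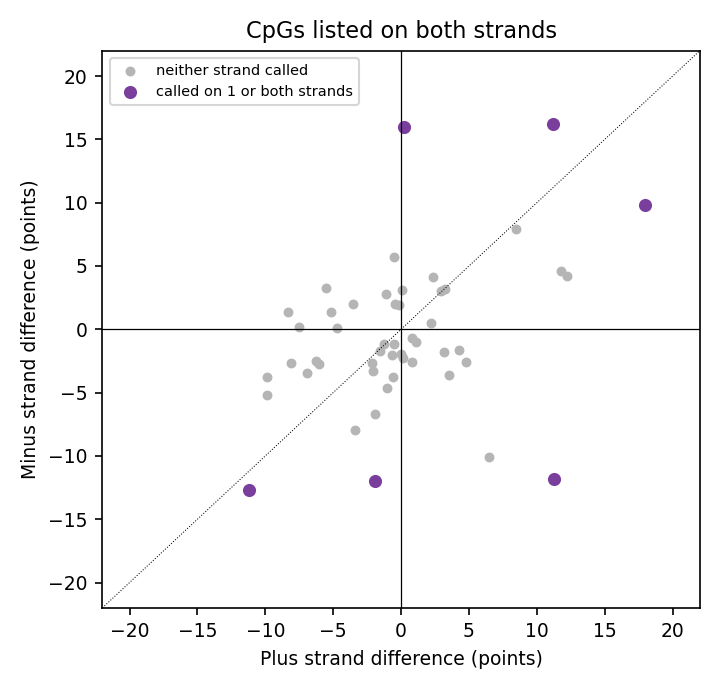
Difference on the minus strand (vertical axis) against the difference on the plus strand (horizontal axis), both in percentage points, for the 50 CpGs listed on both strands; the dotted line marks equal values. Points of the 6 CpGs with a call are purple, and the point at 11.3 and -11.8 points has opposite signs.

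No tile of the megabase was called, while 2.78% of all listed tiles were, 2.63% as negative and 0.151% as positive calls. The closest features of the tiles were ENSBTAG00000046161 (1 tile), ENSBTAG00000051425 (6 tiles) and the transcript ENSBTAT00000081107 (91 tiles). Tiles are windows on a grid of 100 bp, so overlapping neighbours can share CpG sites, and the 98 tiles formed 13 regions when overlapping or adjoining ones were joined. A q-value below 0.05 was listed for 61 tiles (62.2%), against 71.8% of all listed tiles, of which 48 were negative and 13 positive. Their median absolute difference was 1.38 points, and 19 of them differed by less than 1 point. For 5 of these 61 tiles the p-value itself was 0.05 or more.

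Only 1 tile differed by at least 5 points, the one at 343701 to 344200 downstream of ENSBTAG00000046161. It stood at 6.86 points (p = 2.16e-06, q = 2.05e-06) per the authors' deposited table and covered 2 of that gene's 3 called sites. The tile at 348201 to 348700, which covered 4 of the positive calls of ENSBTAG00000051425, was listed at 4.73 points (q = 5.76e-05) per the authors' deposited table. The lowest tile, at 350901 to 351400, stood at -4.33 points (q = 1.88e-08) per the authors' deposited table and covered the negative call at 350937. For these 3 tiles the sign was that of the calls inside, at a smaller size. The lowest tile also covered positive sites, listed by the authors at 351011 (6.29 points) and 351028 (6.41 points). An overlapping tile, at 351001 to 351500, covered no called site and stood at -3.67 points, although its 3 listed sites averaged 3.47 points.

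None of the 26 heavy variable sites lay in a listed tile. Of the 27 called sites 8 lay in a listed tile and 19 did not. A listed site lay in 50 tiles, a called one in 7, and for 32 of the 50 (64.0%) the tile's sign was that of the average over the sites it covered. Tiles and sites come from the same 12 samples, so this share is no independent check.

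Farther on, 55 tiles formed 1 unbroken region from 679601 to 685900, and 33 of them had a q-value below 0.05. Their differences were small, from -3.15 to 1.58 points. The lowest p of any tile in the megabase was at 680601 to 681100, with -2.94 points (p = 5.09e-13, q = 7.76e-13) per the authors' deposited table. A difference of -0.80 points at 680001 to 680500 had a p of 3.86e-11 (q = 5.55e-11) per the authors' deposited table. The 1 listed site inside the tile at 680601 was negative too, at -2.00 points. The 2 listed sites inside the tile at 680001 were positive, at 0.05 and 1.41 points, against the sign of that tile. Past it, 5 tiles from 686901 to 687800 and 5 from 692201 to 693100 were all negative. The former reached -1.26 points with 2 q-values below 0.05, and the latter reached -3.52 points with 5. In each group the first tile passed on its q-value but not on its p-value. These were the tile at 686901 (p = 0.0900, q = 0.0400) and the tile at 692201 (p = 0.113, q = 0.0490) per the authors' deposited table. The 12 tiles of the last region, at 725101 to 726700, had both signs, from -3.63 to 1.62 points.

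**Figure D5:**
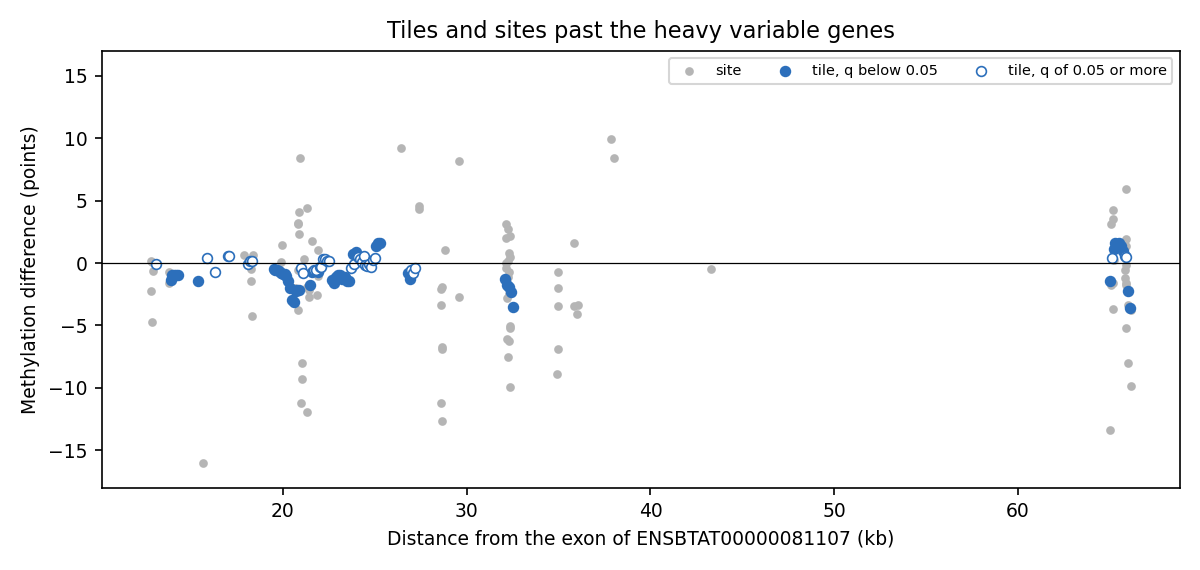
Methylation difference in percentage points (vertical axis) of tiles (blue, filled where q is below 0.05) and sites (grey) by distance in kb from the exon of ENSBTAT00000081107 (horizontal axis); tiles are drawn at their centre. All 91 tiles lie between -3.63 and 1.62 points, while the lowest site in the plot stands at -16.02 points.

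Values close to the call thresholds were as follows. The site at 348335 was called with the highest q of the calls (q = 0.04997), and the site of lowest q among those of at least 10 points that missed it was at 352102, in the promoter class of ENSBTAG00000051425, with -11.1 points (q = 0.0564) per the authors' deposited table. The call of smallest size was -10.6 points at 348994, and the largest difference under 10 points with a q-value below 0.05 was -9.85 points at 726487 (q = 0.0266) per the authors' deposited table. At the edge of the megabase, the last listed site, at 950872, stood at -0.27 points, and the first beyond it, at 1107708, stood at -0.37 points per the authors' deposited table. In all, 41 sites differed by at least 10 points, of which 14 were not called, and 8 sites had a q-value below 0.05 and a smaller difference. With a minimum of 5 points 34 sites would be called (12.4%), against 7.72% of all listed sites. At a q-value below 0.01 and 10 points 9 sites would be called (3.27%), close to the 3.07% of all listed sites. At a q-value below 0.05 and 20 points 2 sites would be called (0.727%), a lower share than the 1.91% of all listed sites.

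The rest of chromosome 21 had 946 listed sites and 75 calls (7.93%), 65 of them negative (86.7%), against 51.9% negative among the calls of the first megabase. The block of that chromosome from 32902968 to 33028975 is part of this rest. It held 524 of the 946 sites and 47 of the 75 calls (8.97% of its sites), 42 negative and 5 positive. In the first megabase of 22 other chromosomes 80 of 1552 listed sites were called (5.15%), 50 negative and 30 positive, and 57 of these calls lay on chromosome 1. Listed sites were dense at the start of chromosome 21: among megabase bins with at least 1 listed site, its first ranked 2 of 69 on that chromosome and 11 of 1908 over all chromosomes analysed, where the median bin held 4 sites. Why these sites and no others were listed could not be read from the labels or the headers.

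Other antigen receptor genes gave few loci to set beside these. By the words of the authors' descriptions, no immunoglobulin lambda, kappa or heavy constant gene and no gene of the major histocompatibility complex was named in either table analysed here. Variable genes of the T cell receptor alpha chain, which is also assembled by rearrangement, were named for 3 genes and 23 sites on chromosome 10, and 2 sites were called (8.70%). Both belonged to T cell receptor alpha variable 24, at more than 10000 bp from it, with 21.5 points (23654852, q = 0.0424) and -19.1 points (23743391, q = 0.0424) per the authors' deposited table. T cell receptor beta variable 5-1 had 18 tiles on chromosome 4 with differences from -2.27 to 7.79 points, and none was called.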

How the data were processed

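Both tables of the authors' comparison of 6 low and 6 high daughter fertility sperm samples were used, 1 of CpG sites and 1 of tiles. Per the submitters' processing notes, Trimmomatic, Bismark, methylKit and the build ARS-UCD1.2 were used, with no versions or settings given. Per the file headers, each locus has a deposited p-value, q-value, methylation difference in percentage points and distance to the closest feature; these are the authors' own values, and the q-value adjustment is not stated. The q-value was below the p-value for 47 of 275 sites and 86 of 98 tiles, which a Benjamini-Hochberg adjusted value cannot be. No sample values were analysed, so depth is unknown and no interval between samples was computed.

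Loci on chromosome 21 with an end at or below 1000000 were taken, called at q below 0.05 and 10 points, and counted in Python 3.11.15 with pandas 2.3.3; the counting was tested on simulated data. The loci named are every gene with a called locus and the extremes and threshold neighbours of each class; other loci are named to account for all members. Members, lists and thresholds were chosen with earlier results of these data known. Alternatives were other thresholds, 1 value per CpG, merged tiles and other right edges. Genome sequence was not used here.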

Additional observations from a re-analysis of the deposited data

How the results depend on the processing

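The number of called sites, 27 (9.82%, against 5.94% of all listed sites), fell to 9 at q below 0.01 (3.27%, against 3.07%) and to 2 at a minimum of 20 points (0.727%, against 1.91%), since fewer loci pass stricter thresholds. At these stricter thresholds the share was close to that of the whole table and below it, respectively. Called sites of the heavy variable genes, 2, became 1 and 0 under the same settings, and other called sites, 25, became 8 and 2. With a minimum of 5 points 1 of the 98 tiles was called in place of 0, a far smaller share than the 15.4% of all listed tiles. These counts stayed within 1.5 times under the other alternatives run: 5 points for sites, 1 value per CpG, right edges at 500000 and 2000000 bp, sites within 10000 bp for the heavy variable genes and, for tiles, merged tiles. Some of these could change nothing. All 26 heavy variable sites lay within 6165 bp of their gene and ended by 393528, so the distance limit and both edges kept every one. No tile exceeded 6.86 points either way, so merging tiles left 0 calls at 10 points. Negative calls made up 51.9% of calls and from 40.9% (edge at 500000 bp) to 58.8% (5 points) under the alternatives; other thresholds and edges give subsets or supersets of the same calls. No paired analysis was possible because the tables hold no values of single samples, and no sample could be left out in turn. Depth behind each locus is unknown, and whether the authors' test allowed for differences between bulls is not stated.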

Other observations

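In the site table positions 681644 and 681645 were both listed on the minus strand, with -12.0 points (q = 0.0267) and 4.41 points (q = 0.515) per the authors' deposited table. Neighbouring positions on 1 strand cannot both be the cytosine of a reference CpG. This was the only such pair in the 17730 listed sites. The first of them, 1 of the 4 negative calls past the genes, also had a plus-strand partner at 681643, with -1.95 points (q = 0.654) per the authors' deposited table.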
